A study of Homo sapiens with 12 samples.

Results

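The genes described here are 10 genes of serine synthesis and the amino acid stress response: PHGDH, PSAT1, PSPH, SHMT2, MTHFD2, ASNS, ATF4, ATF5, DDIT3 and CHAC1. They were taken by symbol from the authors' table of normalized counts, which has a row for each of the 10 among 28813 rows. All 10 also had enough reads to be tested, among 15024 genes that did. RNA came from the established cell line MKL-1, derived from a Merkel cell carcinoma positive for Merkel cell polyomavirus, so all values describe 1 line. Cells grew in medium holding 1% ethanol, either as vehicle or with 3 µM EPZ011989, an inhibitor of the histone methyltransferase EZH2, and were split with fresh medium every 3 days. The 4 groups are vehicle at day 6, EPZ011989 at day 6, vehicle at day 12 and EPZ011989 at day 12, with 3 polyA-selected libraries each. Nothing in the labels tells whether the 3 libraries of a group began as separate cultures. The tests therefore weigh differences against the spread between these libraries, and that spread may be only technical. The question put to the genes is whether PSAT1 rises together with the other targets of ATF4 or apart from them.

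Serine is made from a glycolytic intermediate in a chain of reactions in which PHGDH oxidizes 3-phosphoglycerate, PSAT1 adds the amino group and PSPH removes the phosphate. SHMT2 and MTHFD2 then pass a carbon of serine into the folate pool of mitochondria. When amino acids run short, uncharged tRNAs activate the kinase GCN2, which phosphorylates the translation factor eIF2. General protein synthesis falls and the mRNA of the transcription factor ATF4 is translated better, so that ATF4 can act with little change in its mRNA. Textbook ATF4 targets include the serine enzymes PHGDH, PSAT1 and PSPH, the folate enzymes SHMT2 and MTHFD2, the asparagine synthetase gene ASNS, the transcription factors ATF5 and DDIT3 (CHOP), and CHAC1, an enzyme that breaks down glutathione.

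ATF4 can bind in the DNA upstream of a gene, at composite elements shared with C/EBP factors. Only a short stretch around each start was searched here, so sites beyond it would be missed. The RefSeq promoter table of build GRCh38.p14 gives windows of 300 bases, 250 before to 50 after a transcription start, for 8 of the 10 genes; PSPH and SHMT2 have no entry. The motif TGATGNAA was searched on both strands. It was found in 1270 of 35116 windows of that length (3.62%) and in 2 of the 13 windows of the genes described here, 1 of ASNS and 1 of CHAC1. Among the pathway lists described further on, it was in 3 of 32 windows of serine and one-carbon genes. It was in 4 of 24 windows of further ATF4 targets, 5 of 21 of amino acid transporters and 7 of 21 of aminoacyl-tRNA synthetases. A gene can have several windows. By gene, the motif stood in 1 of 20, 4 of 17, 5 of 12 and 7 of 16 in the same order. Over all genes it stood in 1217 of 27305. It stood in 1 of 16 windows of eIF2 kinases and factors, 1 of 23 of the unfolded protein response and 0 of 15 of cell division markers. The 3 windows below are shown because these genes moved differently under treatment, and capitals mark the motif. The PSAT1 window lies at chr9:78296875-78297174 on the plus strand, and these letters are not in it. The ASNS window lies at chr7:97872359-97872658 on the minus strand, with the match from -68 to -61 relative to the start. The CHAC1 window lies at chr15:40953221-40953520 on the plus strand, with the match on the opposite strand from -209 to -202. A match of letters is a description and no measured binding.
PSAT1: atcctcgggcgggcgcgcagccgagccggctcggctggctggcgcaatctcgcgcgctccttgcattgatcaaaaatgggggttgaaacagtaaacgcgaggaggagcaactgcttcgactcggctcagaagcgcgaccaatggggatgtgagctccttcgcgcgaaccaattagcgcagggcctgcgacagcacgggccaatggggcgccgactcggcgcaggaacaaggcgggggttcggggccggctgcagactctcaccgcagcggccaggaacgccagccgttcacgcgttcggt
ASNS: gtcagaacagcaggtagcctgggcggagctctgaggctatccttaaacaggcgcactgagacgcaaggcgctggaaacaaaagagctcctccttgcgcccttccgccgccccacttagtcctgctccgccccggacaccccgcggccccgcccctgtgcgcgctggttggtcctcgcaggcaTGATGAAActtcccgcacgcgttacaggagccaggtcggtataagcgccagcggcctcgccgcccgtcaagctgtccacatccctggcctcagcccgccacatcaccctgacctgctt
CHAC1: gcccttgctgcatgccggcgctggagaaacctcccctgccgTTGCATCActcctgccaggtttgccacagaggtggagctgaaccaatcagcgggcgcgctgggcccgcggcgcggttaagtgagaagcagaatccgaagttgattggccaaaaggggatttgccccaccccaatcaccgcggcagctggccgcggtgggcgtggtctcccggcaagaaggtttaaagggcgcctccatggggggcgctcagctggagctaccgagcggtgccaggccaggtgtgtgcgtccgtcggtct

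The libraries held 15994997 to 20866370 estimated reads each. Levels are read counts per library total (CPM) scaled by edgeR's TMM factors, and 3 reads in a library corresponded to 0.148 to 0.194 CPM. A gene is called where edgeR's quasi-likelihood test gives a Benjamini-Hochberg adjusted p under 0.05 over all 15024 genes, and each log2 fold change carries its standard error after ±. The 12 Merkel cell carcinoma markers that were checked, among them ATOH1, SOX2 and KRT20, were read in all libraries, at a sum of 3382 to 4046 CPM. Markers of fibroblasts (6 genes), leukocytes (6) and endothelium (5) summed to at most 29.8, 10.6 and 3.35 CPM. Replicates 1 and 3 of the day 12 vehicle group differed most among libraries of a group.

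After 6 days PSAT1 was the 1 gene of the 10 that rose, by 0.78 on the log2 scale, while PHGDH, ASNS, ATF4, ATF5 and CHAC1 fell. PSPH, SHMT2, MTHFD2 and DDIT3 did not pass the test. Over all tested genes, 17.1% rose and 17% fell at day 6 (34.2% called), so the count of falls stands beside a background of that size. With transcript lengths as an offset the count of called genes among the 10 went from 6 to 3, since ASNS, ATF4 and CHAC1 lost their call. The median log2 fold change of the 10 genes was -0.23, against -0.02 for all tested genes. After 12 days PSAT1 and CHAC1 rose and PHGDH, SHMT2, MTHFD2, ASNS, ATF4 and ATF5 fell, while PSPH and DDIT3 did not pass. At day 12 66.9% of all genes were called, 33.7% as risen and 33.2% as fallen, so a call by itself says little there, and the sizes matter more. PSAT1 was the 1 gene of the 10 that rose at least 2-fold, as did 16.4% of all genes. PHGDH and ATF5 fell at least 2-fold, as did 9.09% of all genes. The effect differed between the days for 6 of the 10 genes, higher at day 12 for PSAT1, CHAC1 and DDIT3 and lower for PHGDH, SHMT2 and ATF5. Of all genes 47.7% differed in this way, 22.6% higher and 25.1% lower.

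**Figure D1:**
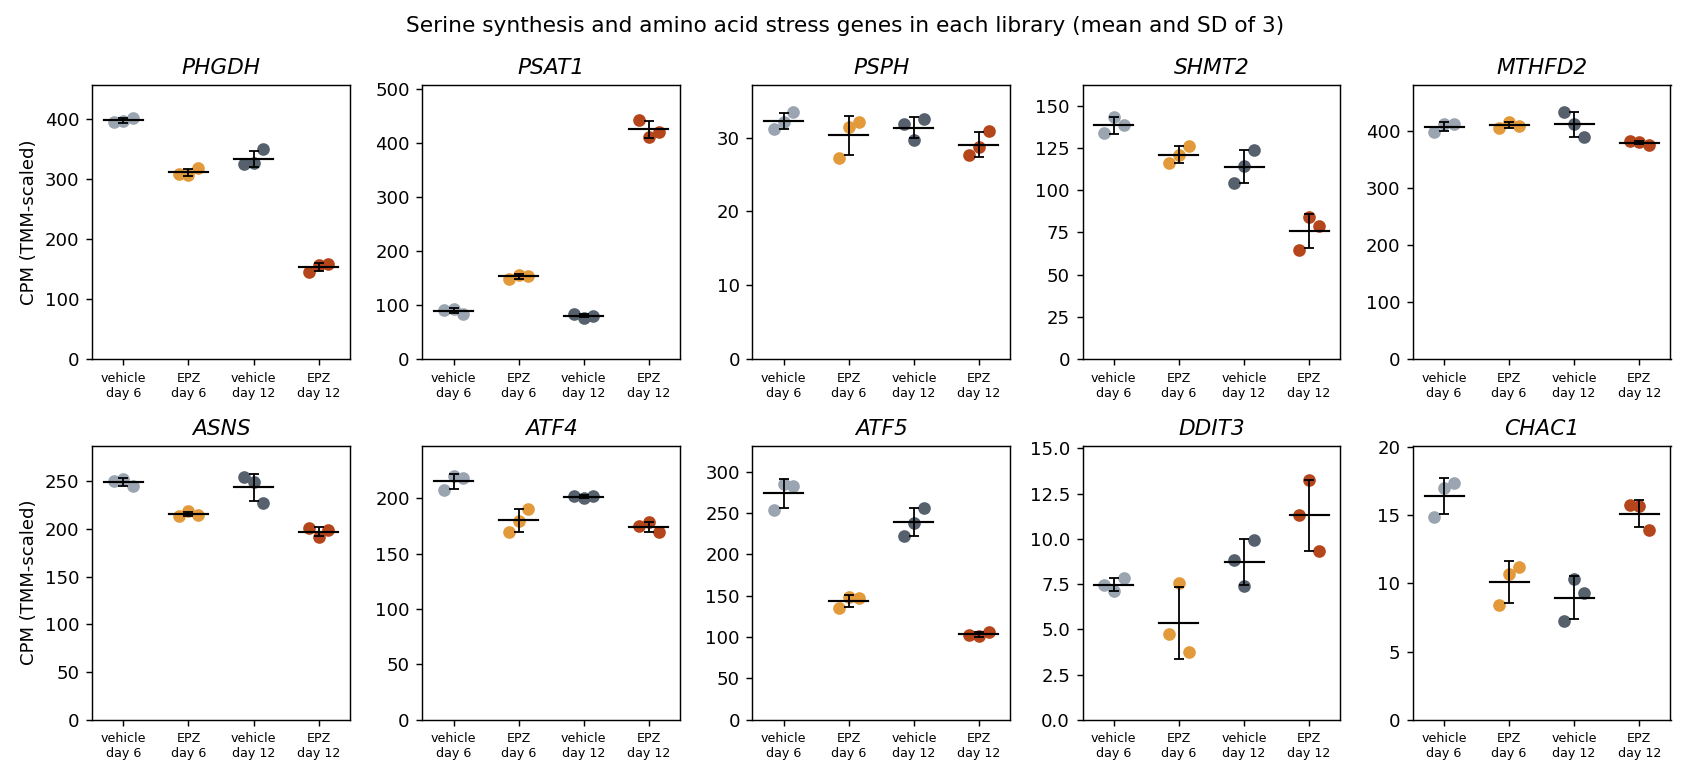
Level of each gene (vertical axis, TMM-scaled CPM from 0) in the 3 libraries of each of the 4 groups, as points, with the group mean as a bar and its SD as whiskers. PSAT1 stands at 411 to 443 CPM in the 3 libraries treated for 12 days and at 92.0 CPM or less in every vehicle library, while PHGDH falls to 145 to 158 CPM.

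PSAT1, at chr9:78297143-78330093 on the plus strand in GENCODE 29 (GRCh38), encodes phosphoserine aminotransferase, the second enzyme of serine synthesis. It was read at 91.4, 92.0 and 84.1 CPM in vehicle at day 6 and at 149, 156 and 153 CPM after 6 days of EPZ011989. By day 12 the values were 83.2, 76.7 and 80.5 CPM in vehicle and 443, 411 and 421 CPM in treated cells. All treated libraries lay above all vehicle libraries on both days. The log2 fold change was 0.78 ± 0.05 at day 6 (edgeR adjusted p = 2.58e-08), a 1.71-fold rise, and 2.41 ± 0.05 at day 12 (edgeR adjusted p = 4.24e-14), a 5.31-fold rise. The effect at day 12 exceeded that at day 6 by 1.63 ± 0.07 (edgeR adjusted p = 8.14e-10). In the authors' table the rise was of like size, from 1370 to 1447 normalized counts in vehicle at day 12 to 7411 to 7876 in treated cells.

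The place of the PSAT1 rise in the transcriptome depended on whether genes with few reads were counted. At day 6 12.1% of tested genes had a higher log2 fold change, and at day 12 6.37% did. Among 10255 genes averaging 10 CPM or more, PSAT1 ranked at place 203 at day 12. The estimated transcripts place the rise in PSAT1-202, which held 97.2% ± 1.6 of the gene's TPM, a level corrected for transcript length, in vehicle at day 6 and 99.2% ± 0.55 in treated cells at day 12 (SD, n = 3). The tested genes within 1000000 bases of PSAT1 were CEP78, GNAQ and VPS13A, chosen by position. At day 12 CEP78, which ends 17453 bases before PSAT1 begins, fell by 0.94 ± 0.06 on the log2 scale (edgeR adjusted p = 1.33e-09), GNAQ fell by 0.64 ± 0.07 and VPS13A fell by 1.23 ± 0.06. At day 6 GNAQ rose by 0.28 (edgeR adjusted p = 0.00878), VPS13A fell by 0.39 (edgeR adjusted p = 1.68e-04) and CEP78 was not called (-0.12, edgeR adjusted p = 0.101).

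PHGDH, at chr1:119648411-119744226 on the plus strand, encodes the dehydrogenase that opens the serine pathway, and it moved against PSAT1. Its level was 394, 397 and 402 CPM in vehicle and 308, 306 and 318 CPM in treated cells at day 6. The day 12 libraries held 325, 326 and 349 CPM in vehicle and 145, 156 and 158 CPM in treated cells. Treated libraries lay below vehicle libraries on both days, without overlap. PHGDH fell by 0.36 ± 0.04 on the log2 scale at day 6 (edgeR adjusted p = 1.53e-05) and by 1.12 ± 0.04 at day 12 (edgeR adjusted p = 1.28e-11). The fall was deeper at day 12, by a difference of -0.77 ± 0.06 (edgeR adjusted p = 1.35e-07).

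PSPH, at chr7:56011051-56051604 on the minus strand, encodes the phosphatase that completes serine synthesis. At day 12 its level was 31.8, 29.7 and 32.5 CPM in vehicle and 27.6, 28.7 and 30.8 CPM in treated cells, and the groups overlapped. The log2 fold change was -0.09 ± 0.08 at day 6 (edgeR adjusted p = 0.407) and -0.11 ± 0.08 at day 12 (edgeR adjusted p = 0.242). The approximate 95% interval at day 12 ran from -0.27 to 0.05, so a fall of that size or a small rise is within the error. The 3 enzymes of this 1 pathway thus took 3 courses: PSAT1 rose, PHGDH fell and PSPH passed no test.

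Per length, in TPM (transcript level corrected for length), the order of the genes turned. In vehicle at day 6 PHGDH was highest at 494 ± 12.8 TPM (SD, n = 3), followed by MTHFD2 at 305 ± 4.03, ASNS at 293 ± 10.4, ATF5 at 272 ± 20.4 and ATF4 at 203 ± 3.26 TPM. SHMT2 at 116 to 127 over its 3 libraries, PSAT1 at 80.4 ± 3.85, PSPH at 36.2 ± 2.58, CHAC1 at 22.9 ± 2.88 and DDIT3 at 14.7 ± 0.934 TPM came after. The libraries of MTHFD2 and ASNS overlapped, as did those of ASNS and ATF5. In cells treated for 12 days PSAT1 was highest at 421 ± 14.2 TPM. MTHFD2 at 301 ± 1.53, ASNS at 273 ± 5.99 and PHGDH at 216 ± 3.72 TPM followed, with no overlap between these 4. These sums include transcripts not annotated as coding. MTHFD2-205 (nonsense-mediated decay) held 129 TPM in vehicle at day 6 and 134 TPM in cells treated for 12 days. PHGDH-207 (retained intron) held 125 and 55.2 TPM. The order was not worked out for coding transcripts alone.

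SHMT2, at chr12:57229327-57234935 on the plus strand, encodes the mitochondrial enzyme that splits serine into glycine and a folate-bound carbon. The day 12 levels were 104, 114 and 124 CPM in vehicle and 64.8, 84.0 and 78.7 CPM in treated cells, without overlap. It fell by 0.59 ± 0.08 on the log2 scale at day 12 (edgeR adjusted p = 2.36e-05). At day 6 the change was -0.20 ± 0.08 (edgeR adjusted p = 0.0844), from 134 to 144 CPM in vehicle to 116 to 126 CPM in treated cells. The effect at day 12 was lower than at day 6 by a difference of -0.39 ± 0.12 (edgeR adjusted p = 0.0138). That difference was just outside the threshold by limma on the authors' table with a pseudocount of 1 (-0.40, limma adjusted p = 0.0513), though not with 5, and also with transcript lengths as an offset (-0.41, edgeR adjusted p = 0.0510).

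MTHFD2, at chr2:74198562-74217565 on the plus strand, encodes a mitochondrial dehydrogenase and cyclohydrolase of the folate pool. It stayed within narrow bounds: 399, 412 and 413 CPM in vehicle and 406, 416 and 409 CPM in treated cells at day 6, which overlap. By day 12 the levels were 434, 412 and 389 CPM in vehicle and 382, 381 and 376 CPM in treated cells, all of them lower. On the TPM scale the day 6 treated libraries (321 to 327 TPM) lay above vehicle (300.1 to 307 TPM). The log2 fold change was 0.01 ± 0.04 at day 6 (edgeR adjusted p = 0.891) and -0.12 ± 0.04 at day 12 (edgeR adjusted p = 0.0167). The call at day 12 was lost without vehicle replicate 1 of that day (-0.08, edgeR adjusted p = 0.0567), and it was lost without treated replicate 1 (-0.11, edgeR adjusted p = 0.0524) or treated replicate 2 (-0.11, edgeR adjusted p = 0.0561). With library totals in place of TMM the value was -0.05 and the call was lost too. Of 23 alternatives 7 lost it. The remaining ones were a filter of at least 1 CPM in at least 6 libraries, a fit of the day 12 libraries alone and a threshold of 0.01. SLC4A5 overlaps MTHFD2 on the opposite strand at 9.06 to 58.2 CPM, and the sources used here do not say whether reads were assigned by strand.

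ASNS, at chr7:97852118-97872542 on the minus strand, encodes asparagine synthetase and is the usual reporter gene of the amino acid response. Its level was 251, 252 and 245 CPM in vehicle and 214, 219 and 215 CPM in treated cells at day 6. The day 12 libraries gave 254, 249 and 228 CPM in vehicle and 201, 191 and 199 CPM in treated cells. The treated libraries lay lower on both days. ASNS fell by 0.21 ± 0.04 on the log2 scale at day 6 (edgeR adjusted p = 0.00193) and by 0.31 ± 0.04 at day 12 (edgeR adjusted p = 2.19e-05). The day 6 call was lost with transcript lengths as an offset (-0.13, edgeR adjusted p = 0.218) and on the authors' table with limma (-0.15, limma adjusted p = 0.143).

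ATF4, at chr22:39519695-39522685 on the plus strand, encodes the transcription factor of the response. Its mRNA was read at 208, 220 and 218 CPM in vehicle and at 170, 179 and 191 CPM in treated cells at day 6. The day 12 levels were 202, 200.2 and 202 CPM in vehicle and 175, 178 and 169 CPM in treated cells. It fell by 0.26 ± 0.05 on the log2 scale at day 6 (edgeR adjusted p = 5.26e-04) and by 0.21 ± 0.05 at day 12 (edgeR adjusted p = 0.00103). With transcript lengths as an offset the day 6 value was -0.16 (edgeR adjusted p = 0.0592). ATF4 protein, by which the response mostly acts, was not measured.

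ATF5, at chr19:49928702-49933935 on the plus strand, encodes a related transcription factor whose mRNA is also translated better under stress. By estimate it had the deepest fall of the 10 on both days. The levels at day 6 were 254, 286 and 283 CPM in vehicle and 135, 149 and 147 CPM in treated cells. By day 12 they were 222, 238 and 256 CPM in vehicle and 102, 101 and 107 CPM in treated cells. No treated library reached a vehicle library. It fell by 0.93 ± 0.06 on the log2 scale at day 6 (edgeR adjusted p = 3.34e-08) and by 1.21 ± 0.06 at day 12 (edgeR adjusted p = 2.95e-10). Its approximate 95% interval at day 12 (-1.33 to -1.09) overlapped that of PHGDH (-1.21 to -1.04), and no test compared these genes. For ATF5 the difference between the days was -0.28 ± 0.09 (edgeR adjusted p = 0.0164). It was not called by limma on the authors' table (-0.21, limma adjusted p = 0.129) or with transcript lengths as an offset (-0.23, edgeR adjusted p = 0.103). NUP62 overlaps ATF5 on the opposite strand at 160 to 250 CPM, and the sources used here do not say whether reads were assigned by strand.

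DDIT3, at chr12:57516588-57521737 on the minus strand, encodes CHOP, a factor that links lasting stress to cell death. It was among the lowest of the 10, at 7.46, 7.11 and 7.82 CPM in vehicle and 4.75, 7.57 and 3.75 CPM in treated cells at day 6. Levels at day 12 were 8.82, 7.40 and 9.92 CPM in vehicle and 11.3, 13.3 and 9.33 CPM in treated cells. In CPM the groups overlapped on both days. In TPM the day 12 treated libraries (20.3 to 28.5 TPM) lay above vehicle (14.5 to 19.6 TPM). The log2 fold change was -0.49 ± 0.22 at day 6 (edgeR adjusted p = 0.113) and 0.38 ± 0.22 at day 12 (edgeR adjusted p = 0.137). The difference between the days, 0.86 ± 0.31, passed the test (edgeR adjusted p = 0.0341), but not when any 1 of 8 of the 12 libraries was left out, with values of 0.66 to 1.18 over all 12 omissions. With transcript lengths as an offset this difference was not called either. MARS1 (222 to 278 CPM) and MBD6 (49.6 to 74.9 CPM) overlap DDIT3 on the opposite strand, both at higher levels than DDIT3. Whether reads were assigned by strand is not stated, as for ATF5.

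CHAC1, at chr15:40952962-40956519 on the plus strand, changed direction between the days. At day 6 it was read at 14.9, 17.0 and 17.3 CPM in vehicle and at 8.38, 10.7 and 11.2 CPM in treated cells. Day 12 gave 7.21, 10.3 and 9.28 CPM in vehicle and 15.7, 15.7 and 13.9 CPM in treated cells. Treated libraries lay below vehicle libraries at day 6 and above them at day 12. CHAC1 fell by 0.70 ± 0.14 on the log2 scale at day 6 (edgeR adjusted p = 0.00170) and rose by 0.76 ± 0.15 at day 12 (edgeR adjusted p = 3.56e-04). The difference between the days was 1.46 ± 0.20 (edgeR adjusted p = 4.32e-05). The vehicle level itself fell from day 6 to day 12, by 0.87 ± 0.15 on the log2 scale (edgeR adjusted p = 0.00611), and the treated level at day 12 (15.1 ± 1.02 CPM) was near that of vehicle at day 6 (16.4 ± 1.34 CPM). The fall in vehicle was not called by limma on the authors' table (-0.65, limma adjusted p = 0.101), with transcript lengths as an offset (-0.63, edgeR adjusted p = 0.121) or in the fit of vehicle libraries alone (-0.87, edgeR adjusted p = 0.0631). With transcript lengths as an offset the day 6 treatment effect was -0.59 (edgeR adjusted p = 0.0507).

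**Figure D2:**
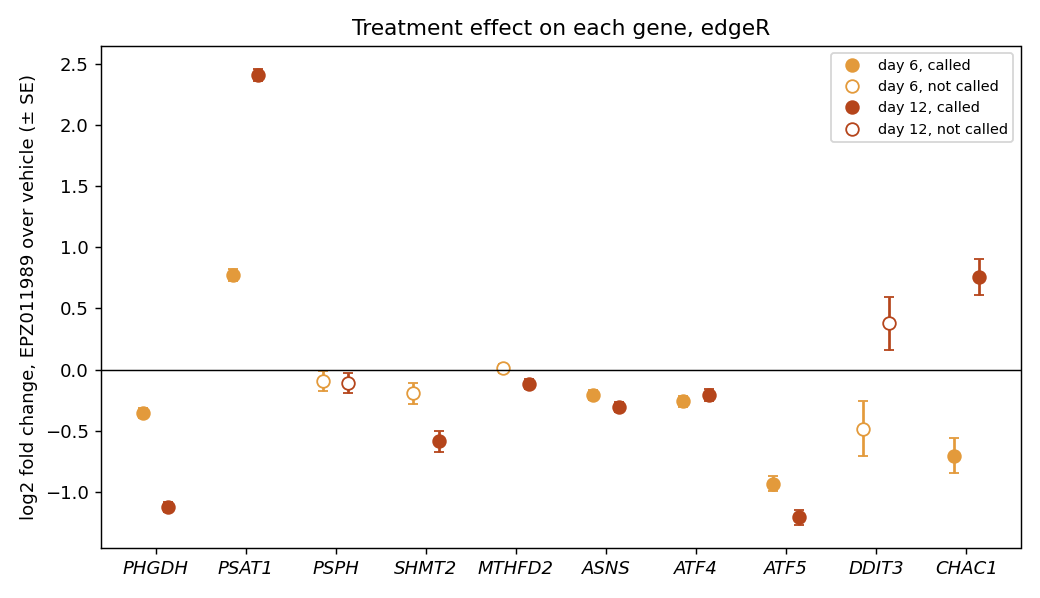
Log2 fold change of EPZ011989 over vehicle for each gene (vertical axis, ± standard error from edgeR) at day 6 and day 12, filled where called and open where not. PSAT1 stands at 0.78 and 2.41, and CHAC1, which was below 0 at day 6, is the other filled point above 0 at day 12, at 0.76.

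In vehicle alone, 13.1% of all tested genes were called between day 12 and day 6, 5.96% as risen and 7.15% as fallen. Of the 10 genes, PHGDH, SHMT2, ATF5 and CHAC1 fell and none rose. The changes were -0.25 for PHGDH (edgeR adjusted p = 0.00587), -0.28 for SHMT2 (edgeR adjusted p = 0.0407) and -0.20 for ATF5 (edgeR adjusted p = 0.0431). PSAT1 changed by -0.16 ± 0.05 and did not pass (edgeR adjusted p = 0.0558). This comparison is the least stable: the count of 4 went to 2 when any 1 of 7 libraries was left out (replicates 2 and 3 of vehicle and of treated cells at day 6, replicates 1 and 2 of vehicle and replicate 3 of treated cells at day 12), and to 0 when only the vehicle libraries were fitted.

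The ratio of PSAT1 to each of the other 9 genes describes how far they parted. Within each library the log2 ratio was taken and set against the mean of vehicle on the same day, with no test. At day 6 the ratio rose least against MTHFD2, by 0.76, and most against ATF5, by 1.70. At day 12 it rose least against CHAC1, by 1.68, and most against ATF5, by 3.59, while against ASNS it rose by 2.70 and against PHGDH by 3.51. For all 9 genes and both days the lowest treated library lay above the highest vehicle library. The 9 ratios share PSAT1, whose own treated libraries lay above all vehicle libraries, so they are not 9 separate results. Of all tested genes, 12.1% at day 6 and 6.37% at day 12 had a higher log2 fold change than PSAT1. The change of PSAT1 minus the median change of the other 8 targets (all but ATF4) was 1.03 at day 6, with treated libraries at 1.04, 0.995 and 1.04. At day 12 it was 2.63, with treated libraries at 2.68, 2.58 and 2.59. PSAT1 thus did not rise with the other ATF4 targets among the 10 at day 6. At day 12 CHAC1 alone was called as risen beside it, by less.

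**Figure D3:**
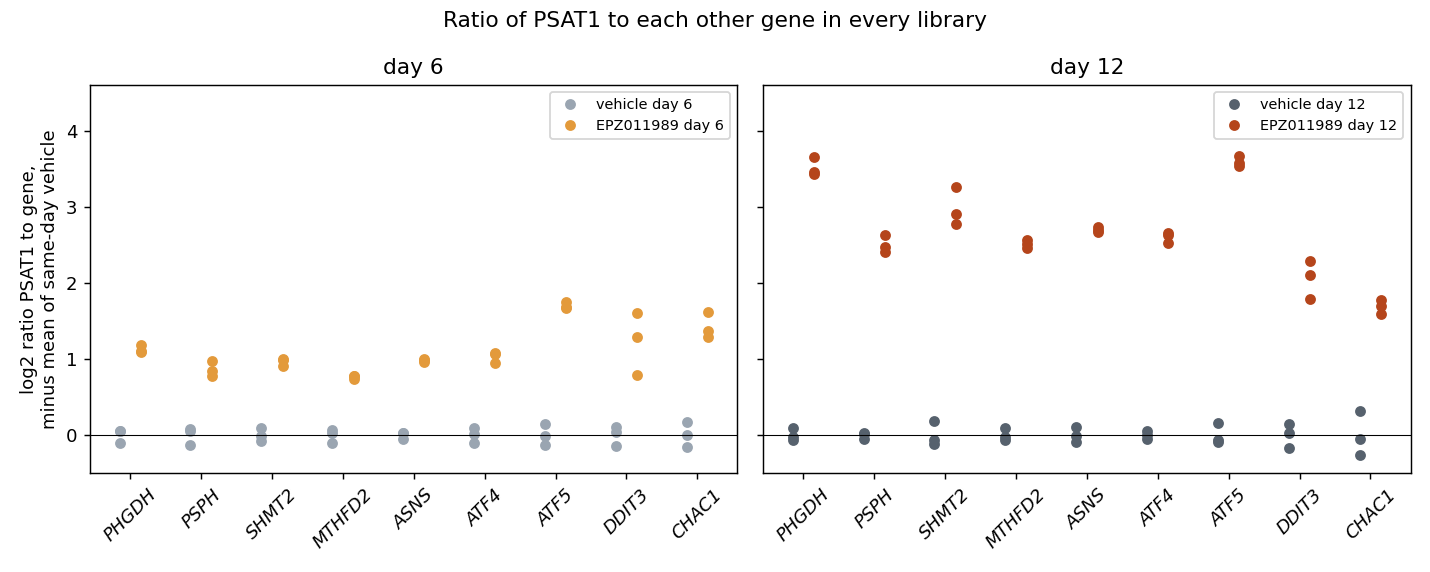
Log2 ratio of PSAT1 to each other gene in every library (vertical axis), after subtraction of the mean of the vehicle libraries of the same day, at day 6 and day 12. Vehicle libraries lie around 0 and every treated library lies above them. Mean changes run from 0.76 for MTHFD2 at day 6 to 3.59 for ATF5 at day 12. All ratios share the PSAT1 level.

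Over the 12 libraries, the genes of at least 10 mean CPM whose log2(CPM + 1) was most like that of PSAT1 were EPHX1 (Pearson r = 0.998), CDKN1A (0.997), TMEM63C (0.997), KIF19 (0.997) and SNX33 (0.997), among 10254 genes compared. Their log2 fold changes at day 12 ran from 1.88 for CDKN1A to 4.04 for SNX33. SNX33 averaged 2.26 and 2.16 CPM in vehicle at day 6 and day 12, and 6.15 and 35.6 CPM in treated cells. It thus met the cut of 10 CPM only through the treated day 12 libraries. The genes most like ASNS were GPD1L (r = 0.976), FANCM (0.976), NFATC3 (0.973), ZNF124 (0.972) and SMAD1 (0.972). The libraries fall into 4 groups, so these values mostly restate the pattern of group means.

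Other genes of serine, glycine and one-carbon metabolism fell more often than they rose by day 12. Of 23 tested, 4 rose and 5 fell at day 6, near the shares of all genes (17.1% and 17%). At day 12 4 rose and 12 fell, beside 33.7% and 33.2% of all genes. The medians were -0.07 and -0.42 on the log2 scale, against -0.02 and 0.02 for all genes. TYMS, thymidylate synthase, fell by 1.90 ± 0.05 at day 12 (edgeR adjusted p = 3.73e-13). AHCY, which hydrolyses S-adenosylhomocysteine, fell by 1.00 ± 0.06. SFXN3, a mitochondrial serine carrier, rose by 1.44 ± 0.06 (edgeR adjusted p = 1.51e-11).

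Further genes of the amino acid response and other ATF4 targets were called in both directions, in shares near those of all genes. Of 19 tested of 22, 3 rose and 5 fell at day 6, beside 17.1% and 17% of all genes. At day 12 8 rose and 6 fell, beside 33.7% and 33.2%. The medians were -0.05 and 0.04. ATF3, a stress-induced transcription factor, rose by 2.01 ± 0.18 at day 12 (edgeR adjusted p = 1.25e-07), DDIT4, an inhibitor of mTORC1 signalling, by 1.26 ± 0.13 and STC2, a secreted glycoprotein, by 1.09 ± 0.07. PCK2, the mitochondrial PEP carboxykinase, fell by 1.04 ± 0.09 at day 12. At day 6 TRIB3, a pseudokinase that restrains ATF4, fell by 0.59 ± 0.09 (edgeR adjusted p = 2.41e-04), and PYCR1, an enzyme of proline synthesis, fell by 0.39 ± 0.08. In vehicle, 7 of these 19 genes fell between day 6 and day 12, beside 7.15% of all genes. Without replicate 1 of vehicle at day 12, 3 fell, and the count of falls over all genes went from 1074 to 320.

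Amino acid transporters fell or did not pass. Of 13 tested of 14, 9 fell and 0 rose on each day, with a median of -0.38 at day 6 and at day 12. Of all genes 17% fell at day 6 and 33.2% at day 12, so the same count stands against a larger background at day 12. SLC7A5 and SLC3A2, the 2 chains of the carrier of large neutral amino acids, fell by 0.68 ± 0.06 and 0.70 ± 0.06 at day 6 (edgeR adjusted p = 1.48e-06 and 8.83e-07). SLC38A5, a glutamine and serine carrier, fell by 2.52 ± 0.06 at day 12. SLC1A4, which carries serine and alanine, fell by 0.60 ± 0.07 at day 12.

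Of the 20 cytosolic aminoacyl-tRNA synthetase genes, 0 rose and 7 fell at day 6, and 3 rose and 11 fell at day 12, with medians of -0.10 and -0.20. All genes rose and fell in 17.1% and 17% of cases at day 6 and in 33.7% and 33.2% at day 12, and these shares are also the background of the next 2 lists. FARSB, a chain of phenylalanyl-tRNA synthetase, fell by 0.94 ± 0.07 at day 12 (edgeR adjusted p = 9.92e-09), and IARS1, which charges isoleucine, fell by 0.62 ± 0.05. Of 16 kinases and factors around eIF2, 3 rose and 3 fell at day 6, near the background, and 2 rose and 9 fell at day 12, with medians of 0.03 and -0.24. EIF2AK2, the kinase that senses double-stranded RNA, fell by 0.91 ± 0.05 at day 12, and EIF2AK3, the kinase of the endoplasmic reticulum, rose by 0.29 ± 0.08 at day 6. Of 20 genes of the ATF6 and XBP1 arms of the unfolded protein response, 3 rose and 5 fell at day 6, and 8 rose and 6 fell at day 12, near the background on both days, with medians of -0.03 and 0.10. ERN1, the sensor that splices XBP1, rose by 0.86 ± 0.10 at day 6 and by 0.80 ± 0.10 at day 12.

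**Figure D4:**
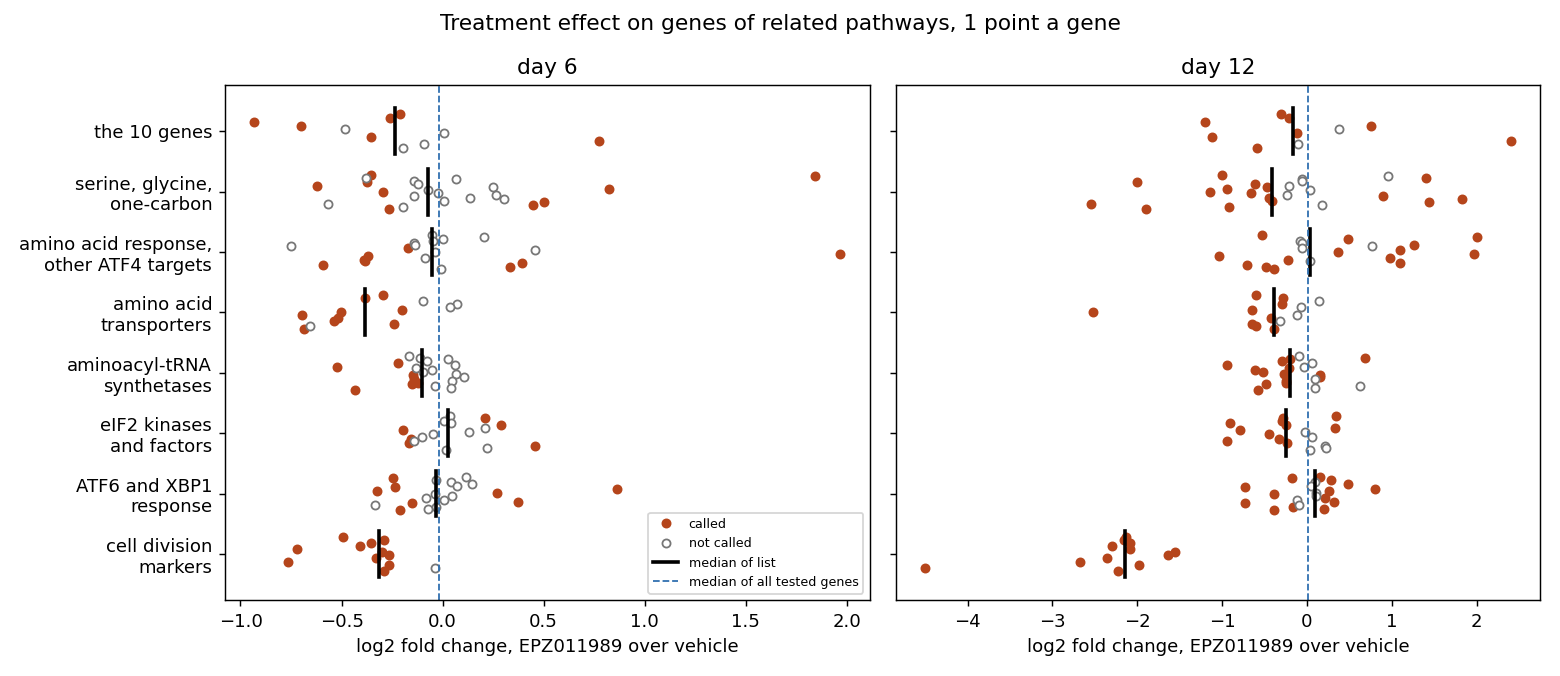
Log2 fold change of EPZ011989 over vehicle (horizontal axis) for single genes of 8 lists at day 6 and day 12, filled where called, with the list's median as a black bar and the median of all tested genes as a dashed line. The transporter bar stands at -0.38 on both days and the cell division bar at -2.15 at day 12, while the bar of further ATF4 targets stands at 0.04.

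Markers of dividing cells moved with the treatment too. Of 12 such genes 11 fell at day 6 and 12 fell at day 12, with medians of -0.31 and -2.15. Of all genes 17% fell at day 6 and 33.2% at day 12. MKI67 fell by 2.35 ± 0.05 at day 12 (edgeR adjusted p = 3.44e-14). The summed level of the 12 markers was 4382 to 4877 CPM in vehicle and 956 to 1060 CPM in treated cells at day 12. The part of this change in the results above was not tested, and in bulk RNA fewer cells of a kind and less RNA per cell cannot be told apart.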

How the data were processed

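Salmon 1.2.0 estimated counts and TPM per transcript, per the submitters' processing notes. Those notes list FastQC, DESeq2 and build hg38 as well. The authors' deposited table holds a normalized signal per gene symbol, and how it was normalized is not stated in the labels or file. Here the deposited estimated counts were summed per gene with GENCODE 29 (168219 of 179883 transcripts matched by identifier, 93.5%) and rounded, and deposited TPM values were summed likewise. Unmatched transcripts held 3.08 to 3.58% of reads and were left out. The sums of the 10 genes lay within 0.994 to 1.01 of the authors' values, after division by the median of that ratio over genes. Of 19 pseudogenes named after members, 14 had no read and all held 87 reads over all libraries. Some sums in the pathway lists, such as those of SHMT1, MTHFD1 and several tRNA synthetases, are incomplete.

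edgeR 4.0.16 (R 4.3.3) fitted all 12 libraries with 4 group means after filterByExpr and TMM, with two-sided tests, and the scripts were tested on simulated data. The standard error is the log2 fold change over the square root of F. Limma 3.58.1 on log2(value + 1) of the authors' table and DESeq2 1.42.0 were alternatives. Named genes were the 10 members, the up to 4 called genes of smallest p in each list, MKI67 and the 5 genes most like PSAT1 and ASNS. A gene that this rule took is not reported here. Members and lists were chosen with earlier results of these data known.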

Additional observations from a re-analysis of the deposited data

Results flagged for a closer look

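Of the 10 genes, 6 had a treatment effect that differed between day 12 and day 6 by edgeR's test of the difference itself, adjusted over 15024 genes, as did 47.7% of all tested genes (22.6% higher and 25.1% lower at day 12). PSAT1 (1.63, edgeR adjusted p = 8.14e-10), CHAC1 (1.46, edgeR adjusted p = 4.32e-05) and DDIT3 (0.86, edgeR adjusted p = 0.0341) had the higher effect at day 12. PHGDH (-0.77, edgeR adjusted p = 1.35e-07), SHMT2 (-0.39, edgeR adjusted p = 0.0138) and ATF5 (-0.28, edgeR adjusted p = 0.0164) had the lower one. The SHMT2 and ATF5 differences were not called by limma on the authors' table with a pseudocount of 1 (limma adjusted p = 0.0513 and 0.129) or with transcript lengths as an offset (edgeR adjusted p = 0.0510 and 0.103). That of DDIT3 was not called with the offset either, and was lost when any 1 of 8 libraries was left out. MTHFD2 is not among the 6 (-0.13, edgeR adjusted p = 0.0776). Its effect was called as lower at day 12 in 4 of 22 alternatives, among them the offset and limma with a pseudocount of 1 (-0.24, limma adjusted p = 0.00891). CHAC1 is the gene whose called effect changed sign between the days.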

How the results depend on the processing

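Under 23 alternatives (22 for the difference between days) the treatment effects of PSAT1, PHGDH and ATF5 kept their direction and call at day 6 and at day 12, and PSAT1 ranged from 0.76 to 0.82 at day 6 and from 2.37 to 2.48 at day 12. The cause of the shifts below was not tested. With transcript lengths as an offset 3 of the 10 genes (1 rose, 2 fell) and 3245 genes were called at day 6, and 0 and 89 in vehicle. At an adjusted p under 0.01, 3402 genes were called at day 6, 3 of the 10 for the difference between days, and 2 of the 10 and 181 genes in vehicle. In vehicle, limma on the authors' table called 1 of the 10 with either pseudocount, and 142 genes with a pseudocount of 1 or 137 with 5. Fitting only the vehicle libraries called 0 of the 10 and 9 genes, where the main fit called 4 and 1970.

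Leaving out each library in turn, the called members numbered 6 to 7 at day 6, 7 to 8 at day 12, 5 to 8 for the difference and 2 to 4 in vehicle. The called genes numbered 3887 to 5771, 9464 to 10084, 6505 to 7588 and 184 to 4183 in the same order, the highest vehicle count being without vehicle day 12 replicate 3 and the lowest without vehicle day 6 replicate 2. Vehicle counts were also 186 without vehicle day 6 replicate 3, and 529 and 470 without vehicle day 12 replicates 1 and 2. PSAT1 minus the median of the other targets ranged from 0.988 to 1.05 at day 6 and from 2.59 to 2.65 at day 12. Against the median of PHGDH, PSPH and SHMT2 the value was 0.954 at day 6 and 2.98 at day 12, and with the authors' table it was 2.71 at day 12.

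Signs turned only among values that were not called, in 13 cases. The difference between days turned for PSPH with library totals (0.020), without treated day 6 replicates 2 or 3 (0.0070 and 0.024) and without treated day 12 replicate 1 (0.010), within a range of -0.095 to 0.024. For ATF4 it turned with lengths as an offset (-0.10) and with limma at both pseudocounts (-0.033). In vehicle, ASNS turned with the offset (0.13), with limma (0.12) and without vehicle day 12 replicate 3 (0.022; range over omissions -0.062 to 0.022). ATF4 turned with the offset (0.018), and MTHFD2 without vehicle day 12 replicate 1 (-0.025; range -0.025 to 0.060). The ATF5 and SHMT2 differences between days lost their call in 4 and 3 of 22 alternatives, and the CHAC1 change in vehicle in 4 of 23. The DDIT3 difference lost its call in 10 of 22, and that of MTHFD2 gained a call in 4. DDIT3 was called at day 6 without treated replicate 2 (-0.81, edgeR adjusted p = 0.00904).

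Libraries with the same replicate number did not deviate together, with correlations of -0.07 to 0.09, so the numbers were not taken as pairs. With the replicate block 7 of the 10 genes were called at day 6, SHMT2 among them (-0.19, edgeR adjusted p = 0.0268), 8 at day 12, 6 for the difference and 4 in vehicle. Genes with few reads, here DDIT3 and CHAC1, have the widest errors at this depth.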
